A study of Arabidopsis thaliana with 14 samples.

Results

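Transposable elements that gave reads in a single genotype were examined in the total poly(A)+ RNA of immature Arabidopsis flower buds. An element was taken when its value was 0 in all 3 libraries of one genotype and summed to at least 3 over the 3 libraries of the other. Of 31189 elements, 500 met this rule: 353 were read in aly1-2 only (1.13% of all elements) and 147 in wild type only (0.471%). A value is an estimated count, in which a read that maps to several places can be divided into fractions.

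Transposable elements are mobile DNA sequences that plant cells keep transcriptionally silent by DNA methylation and by methylation of histone H3. In Arabidopsis the silent state is maintained through cell division by the methyltransferases MET1 and CMT3 and the chromatin remodeler DDM1. It is renewed by RNA-directed DNA methylation, in which small RNAs guide the methyltransferase DRM2. An element that gives poly(A)+ reads in a mutant and none in wild type is therefore a usual first sign looked for when silencing is in question, and low read numbers limit how far such a sign can be read.

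The groups were wild-type Columbia and aly1-2, a mutant of ALY1 in the Columbia background, with 3 total RNA libraries each, all from inflorescences with buds of stages 1 to 12. ALY1 is one of the plant ALY/REF adaptors, proteins that bind RNA in the nucleus and link its synthesis and splicing to export. The mutant is represented by a single allele, and the labels do not tell whether replicates are separate plants. The p-values therefore reflect spread among these samples that may be technical. The nuclear and cytoplasmic libraries of the series have gene counts alone here and were not used. ALY1 itself had 105.1, 111.7 and 119 CPM (counts scaled to an equal library size of 1 M, mega) for the wild-type libraries but 14, 20.2 and 17.9 for the mutant ones, so its level matched each library's label. The floral genes AP1, AP3, AG and LFY, which mark this tissue, had reads in every library, from 11.6 CPM for LFY to 132.4 CPM for AP3.

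The mutant libraries were deeper, with 12.74, 10.24 and 11.32 M gene counts against 8.76, 9.57 and 9.72 M in wild type, 1.22 times the wild-type depth in all. The library of aly1-2 replicate 3 stood apart from the other 5: it had reads in 5787 elements, against 4824 and 4791 in the other mutant libraries and 4134 to 4634 in wild type, without being the deepest. It also had reads in 27161 genes, against 25930 to 26501 in the rest. The size of each side, its strong members, the chromosome ratios and the matched-depth comparison are therefore also given without it. The sum classes and the counts beside the threshold are given with it only.

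Most elements on both sides had very few reads. The summed value in aly1-2 had a median of 3.57 and a highest value of 83, and that in wild type had a median of 3.2 and a highest value of 11. On the mutant side 253 elements (71.7%) summed to under 5, and on the wild-type side 122 did (83%). A sum of exactly 3 was held by 145 elements on the mutant side and by 68 on the wild-type side. At the upper end the sides parted: 20 elements summed to 10 or more in aly1-2 only, and 2 did so in wild type only. These values chose the elements, so they describe the sets and support no test.

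**Figure D1:**
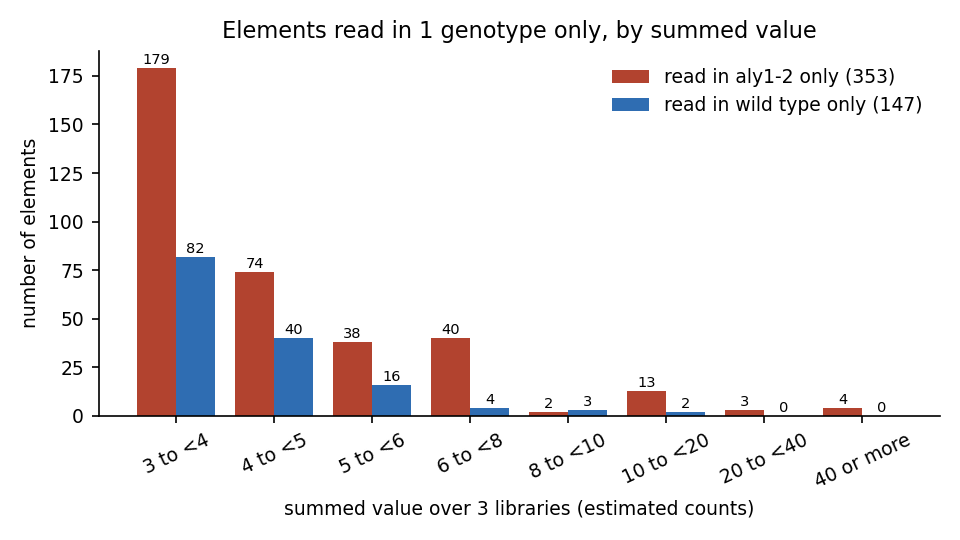
Number of elements (vertical axis) by summed value over the 3 libraries of the genotype that was read (horizontal axis, estimated counts, classes of unequal width), for aly1-2 only (red, 353) and wild type only (blue, 147). Most bars' height lies below a sum of 5, and the 7 elements at 20 or more are all on the mutant side.

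The same choice made just below the threshold gave still more elements. With sums from 2 to under 3 there were 505 elements in aly1-2 only and 303 in wild type only, and with sums from 3 to under 4 there were 179 and 82. The other edge of the rule, the 0, left out elements with a trace of reads in the second genotype. There were 26 elements with at least 10 in aly1-2 and more than 0 but at most 1 in wild type, and 2 with the reverse. The highest of these, AT5TE33235, had 22.3, 31.25 and 45.66 in the mutant libraries and 0.03, 0.71 and 0.12 in wild type, all of these below 1. AT4TE21910 had 13.02, 14.36 and 27 in aly1-2 and 0.09 in a single wild-type library. On the reverse side AT4TE50935 had 4.5, 6 and 5 in wild type and 1 in aly1-2 replicate 2.

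AT1TE75440, on chromosome 1, had the highest sum of all 500 elements. Its values were 39, 15 and 29 in aly1-2 replicates 1 to 3 and 0 in each wild-type library. All mutant libraries lay far above the wild-type ones, and all values were whole numbers. The 0s in wild type were required by the rule, so no fold is given for this or any other member. Both neighbours in the id order, AT1TE75420 and AT1TE75445, had no read in any of the 6 libraries.

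Chromosome 3 held the next 3 elements by sum. AT3TE76405 had 27.43, 12.55 and 15.05 in the mutant libraries, so some of its value came as fractions. AT3TE66400 had 15, 12 and 20, all whole. AT3TE53850 had 13, 12 and 16, all whole. In each of the 3 elements the lowest mutant library was replicate 2 and still held at least 12 counts, with every wild-type library at 0. The elements next to AT3TE53850 on both sides had no read at all, and those next to AT3TE76405 and AT3TE66400 had at most 1 in any library.

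These 4 elements were the only members deep enough to enter the fit over all elements. In that fit (edgeR quasi-likelihood test with library sizes from genes, adjusted p under 0.05), 854 elements were tested and 9.13% were called: 7.73% rose and 1.41% fell. All 4 members tested were among the risers, and since the rule used the same contrast, nothing is read from that count. No element of the wild-type side had enough reads to be tested. With a library left out, AT3TE53850 had too few reads to be tested without aly1-2 replicate 2 or without aly1-2 replicate 3, and it was called in the other 4 fits. The other 3 were called in all 6, which the rule itself largely fixes.

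The remaining high members of the mutant side varied more between the mutant libraries. AT4TE08720 had 4, 4 and 22 in replicates 1 to 3, so most of its sum came from replicate 3. AT2TE23510 had 10, 7 and 11.02, which was even across the libraries. AT5TE00870, among the first elements of the chromosome 5 list, had 12, 2 and 11, with replicate 2 low.

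AT2TE15520 had 0, 6 and 11, so 1 mutant library was as empty as the wild-type ones. AT1TE43225 had 2, 2 and 11, again with replicate 3 high, while AT4TE12690 had a more even 4, 5 and 6. AT5TE25530 had 6, 2 and 7. Of the 20 elements with a sum of 10 or more, 15 had reads in all 3 mutant libraries. Their 0s in wild type were required by the rule, so no comparison with wild type is read from that count. The 5 that lacked a mutant library were AT2TE15520, AT1TE43445, AT3TE54840, AT1TE45395 and AT2TE25290, and AT1TE45395 had its whole sum of 10 in replicate 3.

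Further elements with reads in every mutant library and a sum of at least 10 lay on several chromosomes. AT4TE18360 had 2, 3 and 9, AT4TE44390 had 1, 4 and 8.5, and AT3TE92360 had 1, 3 and 9, so all of them were highest in replicate 3. AT1TE44230 (3.08, 5 and 5.23) was nearly level between replicates 2 and 3, and AT2TE27505 (4, 5 and 2) was lowest in replicate 3.

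On the wild-type side no element came near the mutant side's highest. AT2TE00530 had 6, 1 and 4 in wild-type replicates 1 to 3 and 0 in each mutant library, and AT5TE38015 had 3, 3 and 5. Both had reads in all 3 wild-type libraries. AT4TE31070 (4, 3 and 2) and AT2TE10230 (2, 2 and 2) were the other members among the 10 highest with a whole count in all 3 wild-type libraries.

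AT4TE19540 (7, 0 and 2) and AT1TE12130 (1, 0 and 7) took most of their sum from 1 library. AT3TE09255, AT5TE15670 and AT5TE48725 had 3 counts in each of 2 libraries and 0 in the other. AT1TE25610 had 4, 0.17 and 1.5, so part of its value came as fractions. AT1TE12130 lies next to a strongly read element in the id order, AT1TE12135, which had 125.42, 110.64 and 176.41 in wild type and 139.67, 152.92 and 156.67 in aly1-2. Its own reads thus sat beside a transcript of similar level in both genotypes, and how the 2 elements lie to each other on the genome was not analysed here.

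**Figure D2:**
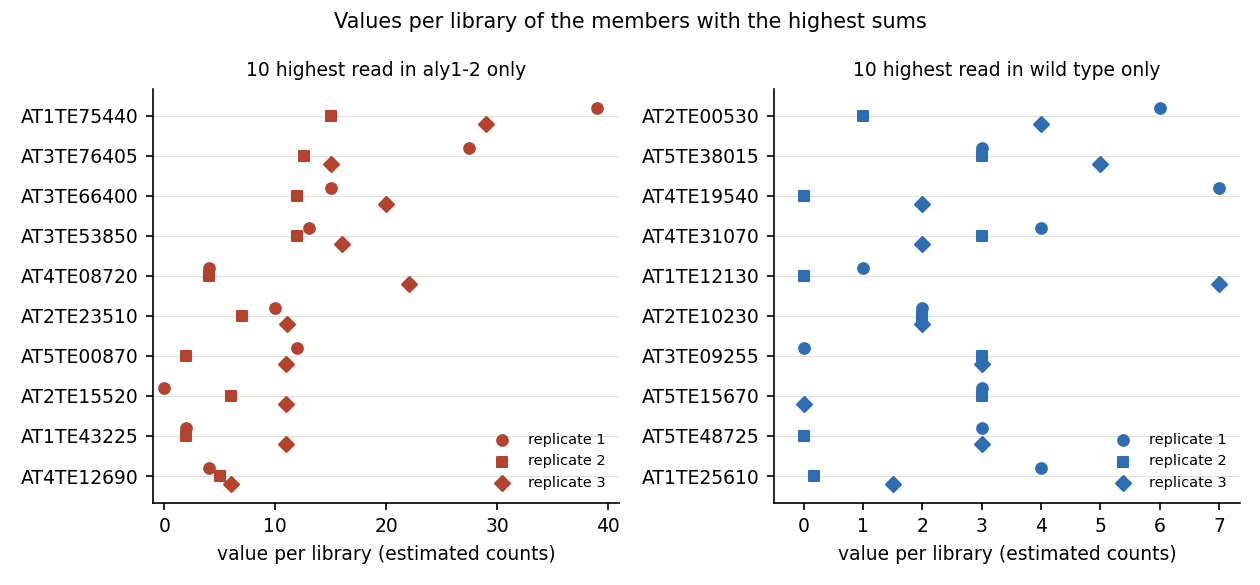
Values per library (horizontal axis, estimated counts) of the 10 members with the highest sums in aly1-2 only (left, red) and in wild type only (right, blue), with a symbol per replicate. All values of the other genotype are 0 and are not drawn; the horizontal scales differ, reaching 39 on the left and 7 on the right.

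Members were also spread unevenly over the libraries of their own genotype. On the mutant side 116 elements had reads in a single library, 176 in 2 and 61 (17.3%) in all 3. On the wild-type side these numbers were 63, 58 and 26 (17.7%). Of the 353 mutant-side elements, 71 were read in aly1-2 replicate 3 alone, 24 in replicate 1 alone and 21 in replicate 2 alone.

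Replicate 3 held 46.6% of the summed value of the mutant side with 33% of the mutant gene counts. As CPM of the gene counts, the members' sum was 40.1, 43.2 and 73.6 CPM for the mutant libraries, against 23.4, 13.4 and 23.8 CPM for the members of the wild-type side. These sums run over 353 and 147 members, chosen at a minimum sum that deeper libraries reach more easily. They are therefore no levels per element, and no difference between the genotypes is read from them. Wild-type replicate 2 was the low library of its genotype, with 6 elements read in it alone, against 28 and 29 in the others. The 10 highest elements held 19.9% of the mutant side's value and 13.8% of the wild-type side's.

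Depth was then allowed for by exact binomial probabilities, in which every mutant count was kept with a chance of 81.8%, the ratio of wild-type to mutant gene counts. At that depth 269 elements were expected in aly1-2 only and 179 in wild type only, so the ratio of the sides fell from 2.4 to 1.5. With depth taken from the element counts themselves (76.6% kept), 242 and 191 were expected, a ratio of 1.27. Among sums of 10 or more the numbers thinned by gene counts were 15.7 against 2.6. The gap between the sides was thus wider there than over all members thinned in the same way. Numbers thinned by element counts are not given for this class.

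The excess of the mutant side over the wild-type side also depended on which libraries were used. Without aly1-2 replicate 3 the mutant side held 158 elements and the wild-type side 232, the reverse of the order with all 6 libraries, but 2 mutant libraries then faced 3 wild-type ones. The sides also drew closer without aly1-2 replicate 1 (240 and 224) and without aly1-2 replicate 2 (240 and 201). With 2 libraries against 2, the mutant side was the larger in all 9 sets as read, and its libraries were also the deeper in all 9 (21.55 to 24.05 M gene counts against 18.34 to 19.29 M). It held 228 to 254 elements against 120 to 157 in the 3 sets without aly1-2 replicate 3, a ratio of 1.62 to 1.98, and 325 to 374 against 103 to 147 in the 6 sets with it, a ratio of 2.26 to 3.42. With the mutant counts also thinned to the wild-type gene counts, the ratio was 1 to 1.2 in the 3 sets without aly1-2 replicate 3 and 1.4 to 2.13 in the 6 sets with it. Thinned by element counts it was 0.93 to 1.03 and 1.33 to 1.62. Element counts summed to 514180 in aly1-2 and 393688 in wild type, so thinning by them also takes out a difference in total element reads. What makes the ratio differ between these sets was not tested. At sums of 10 or more, thinned by gene counts and without aly1-2 replicate 3, the numbers were 9.8 to 13.7 in aly1-2 only. They were 0.5 to 1.9 in wild type only, and numbers thinned by element counts are not given for this class. Those 9 sets share libraries and are no replicates of each other.

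**Figure D3:**
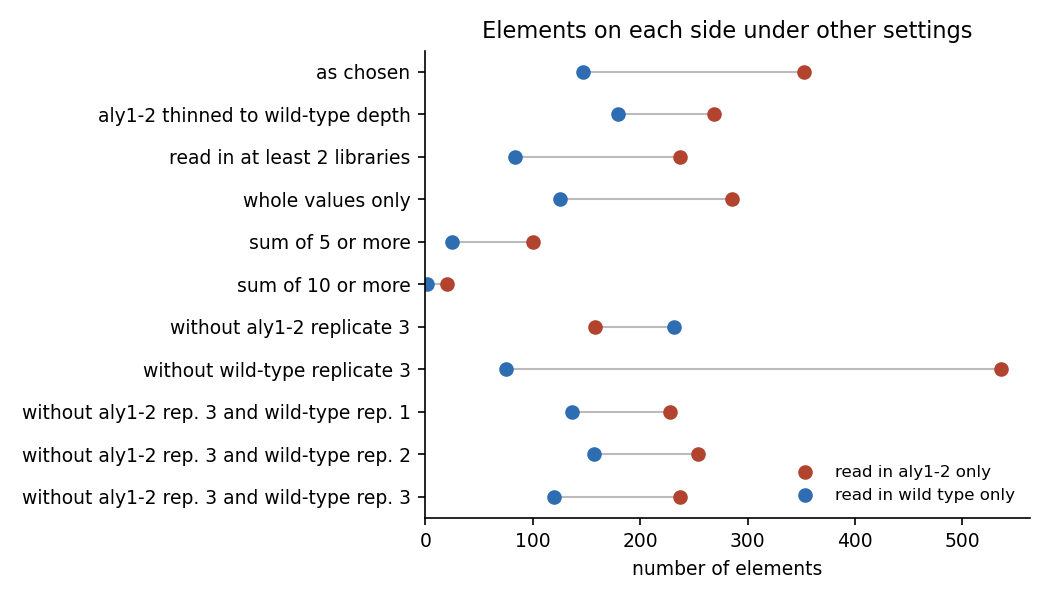
Number of elements (horizontal axis) read in aly1-2 only (red) and in wild type only (blue) under the rule and under other settings; a line joins the sides. The sides stand at 353 and 147 as chosen. The order turns to 158 and 232 when aly1-2 replicate 3 alone is left out, with 2 mutant libraries then against 3 wild-type ones.

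Over all elements, and not only the members, the number read was compared at equal gene counts. At the depth of the shallowest library, 8.76 M gene counts, the number of elements with a read was 4456, 3954 and 4396 for the wild-type libraries. It was 4025, 4433 and 5099 for aly1-2 replicates 1 to 3. The ranges overlapped, and aly1-2 replicate 3 was the highest value of all. The mutant mean was 4519 ± 542 and the wild-type mean 4269 ± 274 (SD, n = 3 each), a difference of 250 (two-sided exact permutation test, p = 0.5; the smallest p this design allows is 0.1). The difference was 97 with depth taken from element counts (p = 0.9 by the same exact test), and −40 without aly1-2 replicate 3.

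Whether an element chosen in this way is read again was measured in a library that took no part in the choice. For each library in turn, elements were chosen from the other 5 by the same rule, and the left-out library was then looked up. Elements chosen for a sum of 10 or more in aly1-2 had a value of at least 1 in the left-out mutant library in 13 of 17, 13 of 14 and 6 of 7 cases (replicates 1 to 3 left out). When a wild-type library was the one left out, elements of this class had a value of at least 1 there in 8 of 28, 18 of 40 and 18 of 40 cases. The mean value in the left-out library was 7.85, 6.11 and 14.6 for the mutant libraries and 0.44, 1.27 and 1.16 for the wild-type ones. These 2 ranges of means did not overlap. The medians were 3.08, 4.5 and 15.05 against 0, 0.05 and 0.04. The sets chosen in turn share elements, so the means are not independent. AT1TE75440 was in each of the mutant ones and alone gave 39, 15 and 29 to their sums of 133.51, 85.55 and 102.07. Each wild-type set held the 20 members with a sum of 10 or more, whose 0 there was fixed by the rule. The gap between the means thus rests in part on a few elements and on the rule. The arms were chosen unequally, with the sum taken over 2 mutant libraries in the first and 3 in the second, and the 0 required of 3 and 2 wild-type libraries. Any read at all, fractions included, was found in the left-out wild-type library for 28.6%, 50% and 50% of these elements, so a 0 in the libraries used did not mean a 0 in the next.

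Elements with small sums gave lower shares in the left-out mutant libraries. Those chosen for a sum of 3 to under 5 in aly1-2 had a value of at least 1 in 20.4%, 25.4% and 37% of cases in the left-out mutant libraries, the highest again in replicate 3. In the left-out wild-type libraries they had such a value in 18.9%, 17% and 23.6% of cases, so the ranges overlapped. Their mean values were 0.43, 0.46 and 0.86 in mutant libraries and 0.3, 0.26 and 0.41 in wild-type ones, which did not overlap, although 0.41 and 0.43 lay close. In the class from 5 to under 10 the shares were 29.7%, 28.9% and 37.5% for mutant libraries and 29.5%, 29.7% and 31.8% for wild-type ones, and the mean values were 0.51, 0.68 and 2.45 against 0.56, 0.52 and 0.66. On the wild-type side, elements of 3 to under 5 recurred in 27.3%, 19.6% and 26.1% of cases in wild-type libraries and in 26.6%, 20.1% and 27.8% in mutant ones. From 5 to under 10 the shares were 44.4%, 20% and 66.7% in wild-type libraries, on 9, 10 and 6 elements. They were 37.5%, 31.6% and 44.2% in mutant ones. At 10 or more, 5 of 7, 2 of 4 and 0 of 2 elements had such a value in the left-out mutant library. At most 1 element was in that class with a wild-type library left out. Elements of these classes were thus also read in a further library of the genotype that had none in the libraries used to choose them. The libraries differ in depth, and the sets share elements and differ in size. Each has 2 libraries of one genotype and 3 of the other behind it, so the shares and means are descriptions.

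**Figure D4:**
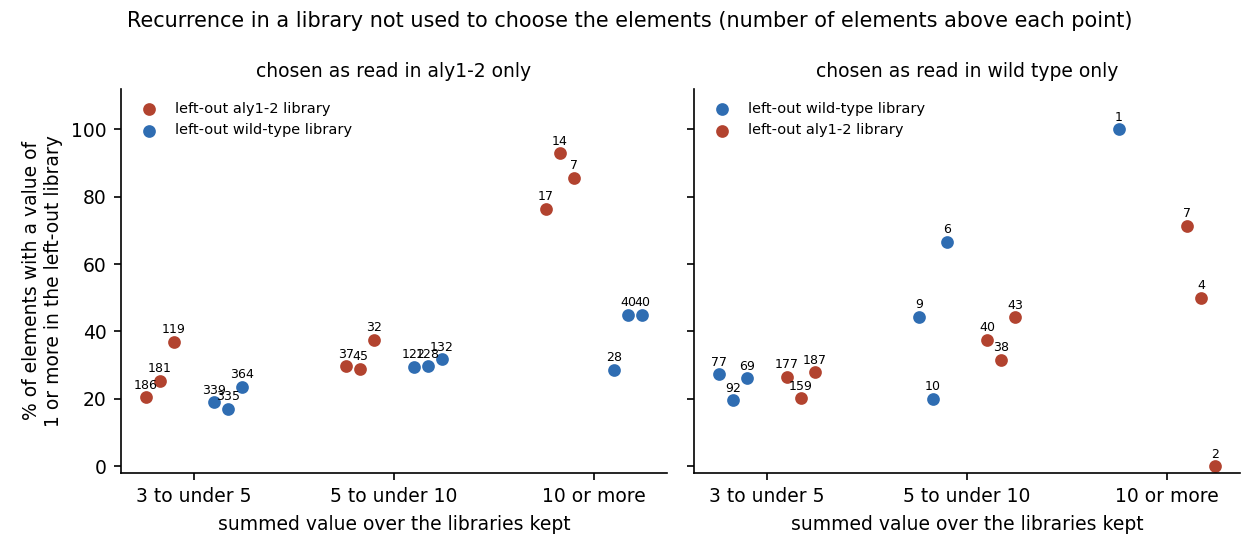
Share of elements with a value of 1 or more in a library left out of the choice (vertical axis, %) by summed value over the libraries kept (horizontal axis), for elements chosen as read in aly1-2 only (left) and in wild type only (right). Each point is 1 left-out library (red aly1-2, blue wild type) with the number of elements above it; red and blue part for sums of 10 or more in the left panel (76.5% to 92.9% against 28.6% to 45%), and in the right panel that class holds at most 7 elements.

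Values were whole in all 6 libraries for 286 of 353 elements on the mutant side (81%) and for 125 of 147 on the wild-type side (85%), against 49.3% of the 3580 elements with reads in both genotypes and a sum of at least 3. The requirement of a true 0 removes elements that receive even a small fraction of a shared read, so these shares are not independent of the rule. Members also have reads in at most 3 libraries and mostly small sums, so fewer of their values could hold a fraction. Few members shared the same fractional values in all 6 libraries. AT5TE51915 and AT5TE52145 both had 1.5, 0.5 and 1.5 in the mutant, AT1TE05280 and AT5TE37745 both had 2, 0 and 1.5, and AT4TE11995 and AT5TE51070 both had 3.03 in wild-type replicate 3. Each of these pairs may hold the same reads and is then a single observation.

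Members were also looked up beside each other in the id order, which follows the order along the chromosome. The sides held 1.13% and 0.471% of all elements, and at such shares few members would be neighbours in any case. The number of runs was not tested against these shares. The 353 mutant-side elements fell into 346 runs, of which 6 held more than 1 element, and no element of the wild-type side had another as its neighbour. The longest run was AT2TE23505, AT2TE23510 and AT2TE23515 on chromosome 2. Together they had 11, 11 and 19.04 in aly1-2 replicates 1 to 3, with AT2TE23505 giving 1, 1 and 5 and AT2TE23515 giving 0, 3 and 3.02. A transcript that crosses several elements would be counted in each, so these 3 may not be independent. The run of AT2TE48545 and AT2TE48570 summed to 1, 2 and 4, and that of AT3TE41605 and AT3TE41610 to 6, 0 and 0. Around the 10 highest elements of each side, 12 of 20 neighbours on the mutant side and 11 of 20 on the wild-type side had no read in any library, near the 63.2% of all elements that were never read.

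The mutant-side elements lay on all chromosomes. They numbered 74, 70, 73, 57 and 79 on chromosomes 1 to 5, which is 10.4, 11.8, 11.3, 11.5 and 11.8 per 1000 elements. On the wild-type side there were 37, 31, 17, 21 and 41, or 5.2, 5.2, 2.6, 4.2 and 6.1 per 1000, with chromosome 3 the lowest. The ratio of the sides was therefore 4.29 on chromosome 3 and 1.93 to 2.71 on the others. The ratio of chromosome 3 was lower without aly1-2 replicate 3. In the 3 sets of 2 against 2 libraries without it, chromosome 3 stood at 1.93 to 2.28, and another chromosome was higher in 2 of these sets. In the sets with it, chromosome 3 stood at 4.22 to 5.31. Its wild-type side held 25 to 27 elements without that library and 16 to 18 with it. None of these numbers was thinned for depth, and the cause was not tested.

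Along the id order of each chromosome, members were counted near the ends of the list. The first and last 10% of the lists together hold 20% of all elements. They held 19.5% of the mutant-side elements, 24.5% of the wild-type-side elements, 33.6% of the elements read in both genotypes and 16% of the 19697 elements never read in any library. Both sides thus had smaller shares at the ends of the lists than the elements read in both genotypes. The id order counts elements and not bases, so these places are no distances, and the element families were not analysed here.

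**Figure D5:**
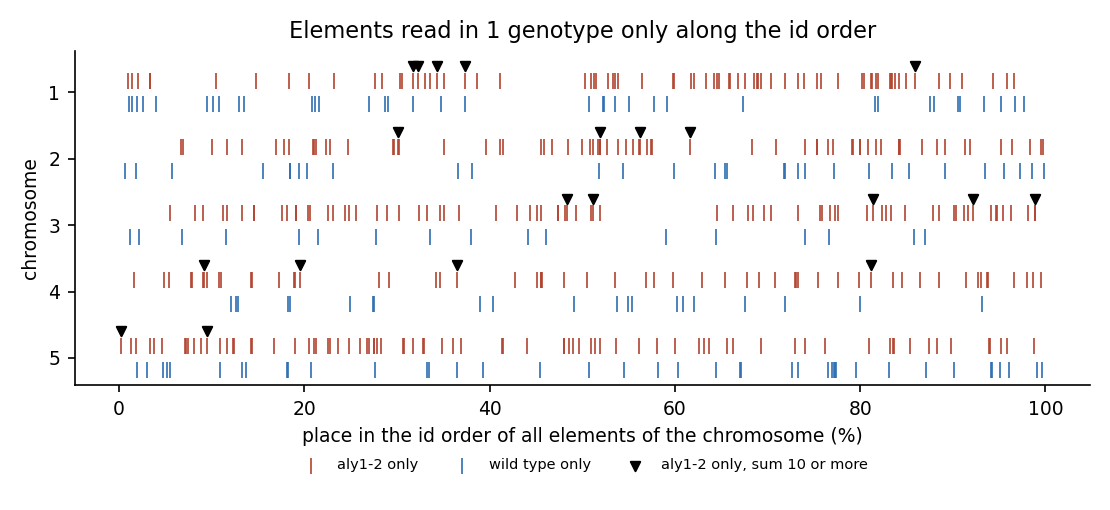
Place of each member in the id order of all elements of its chromosome (horizontal axis, %) for chromosomes 1 to 5 (vertical axis), for aly1-2 only (red ticks) and wild type only (blue ticks); black triangles mark the 20 mutant-side elements with a sum of 10 or more. Members lie along the whole of every list, and the triangles fall on all 5 chromosomes.

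Among genes that set or remove transposon silencing, AGO9 rose and ROS1 fell in the mutant's total RNA. They were 2 of 21 listed genes, all of them among the 20431 genes tested, of which 0.475% were called (adjusted p under 0.05 by edgeR). The list's median log2 fold change was 0.01, as was that of all genes tested, and 12 of the 21 were positive. AGO9, an Argonaute that binds small RNAs and acts in the ovule, had 74.4, 80.9 and 68.9 CPM across the wild-type libraries. Its mutant values of 114.5, 129.4 and 125.2 CPM did not overlap with these. Its log2 fold change was 0.72 (SE 0.10, adjusted p = 0.0357 by edgeR). That call was lost without any 1 wild-type library or without aly1-2 replicate 2 or 3 (adjusted p = 0.0996 to 0.191 by edgeR) and kept without aly1-2 replicate 1 (0.00313), without a filter (0.00813) and by DESeq2 (1.39e-05). The log2 fold change stayed at 0.65 to 0.78 over the libraries left out.

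ROS1, a DNA glycosylase that removes methylated cytosine and so works against silencing, had 8.65, 14.2 and 18 CPM across the mutant libraries. All 3 lay far below its wild-type values of 173.8, 151 and 185.9 CPM (log2 fold change −3.65, SE 0.25, adjusted p = 0.000997 by edgeR). The other 19 genes had log2 fold changes between −0.41 (DRM2) and 0.46 (MORC6) and did not pass. DDM1, the remodeler needed for methylation of long elements, had 0.05 (SE 0.12). MET1, which maintains CG methylation, had 0.17 (SE 0.12). NRPD1 and NRPE1, the largest subunits of RNA polymerases IV and V, had −0.04 (SE 0.17) and 0.02 (SE 0.12). Levels of these RNAs say nothing of the proteins or of methylation at the elements.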

How the data were processed

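Poly(A)+ RNA of 6 total libraries (wild type and aly1-2, 3 each) was used. The authors deposited estimated counts per element and per gene, 1 file per library, neither scaled nor pooled. The submitters' processing notes name STAR 2.5.1b, featureCounts (Subread 1.6.1) and the TAIR10 build. The kit keeps strand, per the labels' protocols. The sources used here do not say how shared reads were divided or whether counting used strand. Values are in 2 decimals. The 1 row of each element file that is no element was left out of the rule.

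Members, lists and tests were chosen with earlier results of these data known. The rule used deposited values. For the fits, values were rounded to whole numbers, as the planned design assumed whole counts, and tested with edgeR 4.0.16 (R 4.3.3; filterByExpr with minimum count 10 and minimum total 15, TMM factors from genes, Benjamini-Hochberg adjustment over all rows tested, threshold 0.05); DESeq2 1.42.0 was an alternative. SE is the size of the log2 fold change over the root of its F statistic. Gene CPM values used TMM-scaled library sizes, and the members' summed CPM used unscaled gene counts. Thinning used binomial probabilities (scipy 1.17.1) on values rounded up for detection and to the nearest whole number for sums. The fit was also run on simulated counts with a fixed dispersion and library sizes from the simulated rows. That run did not cover the gene-based library sizes of the element fit. No replicate pair held equal counts in most genes: at least 97.9% of genes differed.

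Named elements were the 10 highest sums of each side, those with reads in all 3 libraries and a sum of at least 10, and members of the longest run of the mutant side, with 2 further runs taken by id order among those tied for length. Others (elements beside the threshold, neighbours, pairs with shared values, the elements of sum 10 or more that lack a library) were chosen after their values were seen. Named silencing genes were those that passed and DDM1, MET1, NRPD1, NRPE1 and ROS1; DRM2 and MORC6 were named after their values were seen. Element coordinates, families and sequences were not used here, so gene rows of the nuclear and cytoplasmic libraries were not tied to elements and the planned fit of those was not run.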

Additional observations from a re-analysis of the deposited data

Results flagged for a closer look

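A row of the element files that carries a gene identifier, AT2G13431.1, lies outside the 31189 elements and the comparisons above. Its estimated counts were 6, 6 and 5 for aly1-2 replicates 1 to 3 (17 in all) against 1, 1 and 0 for wild-type replicates 1 to 3 (2 in all), so every mutant library lay above every wild-type one. It drew attention because it is a signal in data not used elsewhere that exceeds the level in the control libraries. The reference lists AT2G13431 as a pseudogene. The difference was not tested.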

How the results depend on the processing

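The number of elements in aly1-2 only and in wild type only (353 and 147) moved most with the minimum sum: 858 and 450 at 2, 100 and 25 at 5, 20 and 2 at 10. With reads required in at least 2 libraries they were 237 and 84, and with members of the same 6 values counted once, which also merges chance repeats of small whole counts, 146 and 62. Leaving out 1 library gave 158 to 536 and 75 to 232, and leaving out 1 of each genotype, chosen after seeing the data, 228 to 374 and 103 to 157. Thinned as well, also chosen after seeing the data, the mutant side of those sets without aly1-2 replicate 3 held 179, 188 and 177 by gene counts and 159, 184 and 160 by element counts (wild-type replicate 1, 2 and 3 left out), and without aly1-2 replicate 2 held 214, 233 and 221 by element counts. The wild-type side reached at most 190. Rounding first (501 and 192), whole values alone (286 and 125), a sum under 1 in place of 0 (489 and 191, chosen after seeing the data), runs counted once (346 and 147) and fractional repeats counted once (351 and 146, chosen after seeing the data) stayed within 1.5 times. The mutant side was the larger in each of these but the following. It was the smaller without aly1-2 replicate 3 and, with 2 libraries against 2, in 2 of the 3 sets without it once thinned by element counts. Both sides stood at 188 without wild-type replicate 2 and aly1-2 replicate 3 once thinned by gene counts. The matched-depth difference of 250 elements ran from −40 to 497 over the libraries left out, and was 192 for at least 2 reads and 97 with depth from elements. The 78 elements called became 130 without a filter, 74 by DESeq2, 78 (58 higher, 20 lower against 66 and 12) with library sizes from elements, and 51 to 155 with a library left out. It was 155 without aly1-2 replicate 1 and 51 without aly1-2 replicate 2. Mutant-side members called were 4, 6 by DESeq2, 8 without a filter and 3 or 4 with a library left out. The members tested differed between these settings and the rule used the same contrast, so nothing is read from these counts. With the replicate block 75 elements were called, and 1 silencing gene (ROS1) in place of 2, with AGO9 at adjusted p = 0.0985; the deviations of same-numbered libraries correlated at −0.13, −0.30 and 0.32, positive for number 3 alone, so the numbers were not taken to pair the libraries. Called silencing genes were 1 or 2 with a library left out. Leaving out a library turned the sign of DDM1 (−0.01 to 0.10), NRPD1 (−0.09 to 0.02) and NRPE1 (−0.03 to 0.11), none of them called. Where no reason is given, the cause was not tested. Depth limits all members with sums under 10. It also limits those of 10 or more, of which 4, with sums of 41 to 83, had enough reads for the main fit.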
